A study of Drosophila melanogaster with 6 samples.

Results

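This account follows 10 genes of lipid synthesis and lipid droplets in fly ovaries, out of 17559 genes listed in each library. These genes were chosen by symbol from what is known of their function, with earlier results of these data known. They are SREBP, ACC, FASN1, Desat1, bgm, mdy, Lsd-1, Lsd-2, Jabba and bmm, and all 10 had enough counts to be tested, among 8110 genes that did. Poly(A) RNA from dissected Drosophila melanogaster ovaries was sequenced in 6 directional libraries, 3 per group, from flies kept at 25 °C. Mutant females carried the allele RanBP9D1 over the deficiency BSC469, and control females carried a w1118 chromosome over the same deficiency. Both groups therefore lack the stretch of chromosome 3 that BSC469 removes on one homolog. RanBP9 is the older name of Ipo9, the gene for the import receptor Importin-9, which is known to carry actin into the nucleus, and the series asks what a lower level of nuclear actin does to transcription. The labels do not say whether the RanBP9D1 and w1118 chromosomes are otherwise alike, so an effect of the allele and one of other differences on that chromosome cannot be told apart. SREBP and bmm, on 3L, and Desat1 and Lsd-1, on 3R, lie on it. The labels do not describe the other chromosomes, which carry the other members, so differences there cannot be told apart from the allele either.

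A growing egg stores neutral fat as triglyceride in droplets that nurse cells make in the middle of oogenesis and later pass to the oocyte. Acetyl-CoA carboxylase and fatty acid synthase build fatty acids, a desaturase puts in a double bond, acyl-CoA synthetases activate fatty acids, and an acyltransferase adds the last chain of triglyceride. Perilipins and other coat proteins cover the droplet and control access of lipases, and SREBP is a membrane-bound transcription factor that, once cleaved, switches on genes of fatty acid synthesis.

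The libraries held 21583524 to 26483578 counted reads, and the 10 genes had between 108 and 22217 counts in a library. Levels are given in CPM, which are counts scaled to 1000000 reads with a correction for composition, and changes as log2 fold changes of mutant over control, written below as the log2 change with its SE. A gene was called where edgeR's quasi-likelihood test, adjusted by the Benjamini-Hochberg method over all tested genes, gave a value under 0.05. Ipo9 itself stood at 129.8 ± 22.1 CPM in control and 93.8 ± 3.91 CPM in mutant libraries (SD, n = 3), which is −0.47 on the log2 scale (adjusted p = 0.0544). Nothing in the labels ties replicates to separate crosses or dissections, so p-values measure the spread between these libraries, which may be technical. No exon of the 10 genes overlaps another annotated gene on the same strand. In whole ovaries, fewer cells of a type and less RNA per cell cannot be told apart.

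Markers placed the libraries as ovary, with mutant replicate 2 apart in its gut genes and mutant replicate 3 lowest in its follicle cell genes. The 8 germline markers summed to 3757 to 3967 CPM in mutant and 3723 to 3978 in control libraries, so this sum did not separate the groups. osk gave the largest part of it, 1712 to 1822 CPM in mutant and 1624 to 1766 in control libraries, and single genes of the list were called both ways, aub higher at 0.21 and vas and bam lower at −0.16 and −0.27 on the log2 scale. The 8 follicle cell markers summed to 6387 to 8279 CPM in mutant and 7592 to 8386 in control libraries, which overlap, with 0 called. Mutant replicate 3 held the lowest sum, 6387 CPM against 7592 to 8386 in the other 5 libraries. Each gene of the list except br was lowest there. The 9 late chorion genes, which follicle cells make at the end of oogenesis, summed to 17644 to 20179 CPM in mutant and 21925 to 29768 in control libraries, without overlap, and 4 of the 9 were called lower and 0 higher. The 6 eggshell genes of the middle stages also did not overlap, at 5055 to 5926 and 6422 to 8190 CPM, with 3 called lower and 0 higher. Mutant replicate 2 held 137 CPM of the 7 gut genes, digestive enzymes in the main, against 0.156 to 3.17 CPM in the other 5 libraries; of these 7 genes, Amy-p and Vha16-2 were at 0 in every library. Fat body, muscle and hemocyte sums overlapped between the groups. Nearly all of the hemocyte sum was srp and crq, as Hml, NimC1, eater and He were under 1 CPM in every library. The 7 oenocyte markers summed to 17.5 to 20.8 CPM in mutant and 30.2 to 46.0 in control libraries, with Elo68alpha at 0 throughout. The part of these differences in the changes of the 10 genes was not tested.

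**Figure D1:**
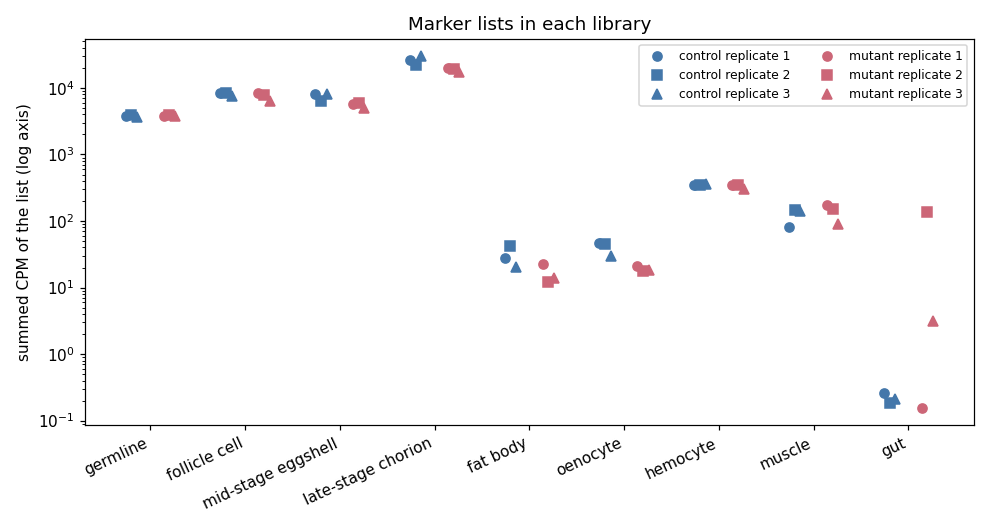
Summed CPM of 9 marker lists on a log axis, 1 point per library, blue for control and red for mutant, with the marker shape giving the replicate number. The gut list reached 137 CPM in mutant replicate 2 and at most 3.17 CPM elsewhere, and the chorion list was lower in each mutant library than in each control library.

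Of the 10 genes, SREBP was higher in mutant ovaries, Jabba and bgm were lower, and 7 did not pass the test. Over all tested genes 14.5% were called, 8.31% higher and 6.2% lower, so calls were common in this comparison and 3 of 10 says little about the members as a group. The median log2 fold change was −0.04 over the 10 genes and −0.00334 over all tested genes, and the median size regardless of sign was 0.15 and 0.10. The groups did not overlap for 5 of the 10 genes, SREBP, Jabba, bgm, Lsd-2 and Desat1, where 34.9% of all tested genes did not overlap. The estimated change reached 1.5 times in none of the 10.

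**Figure D2:**
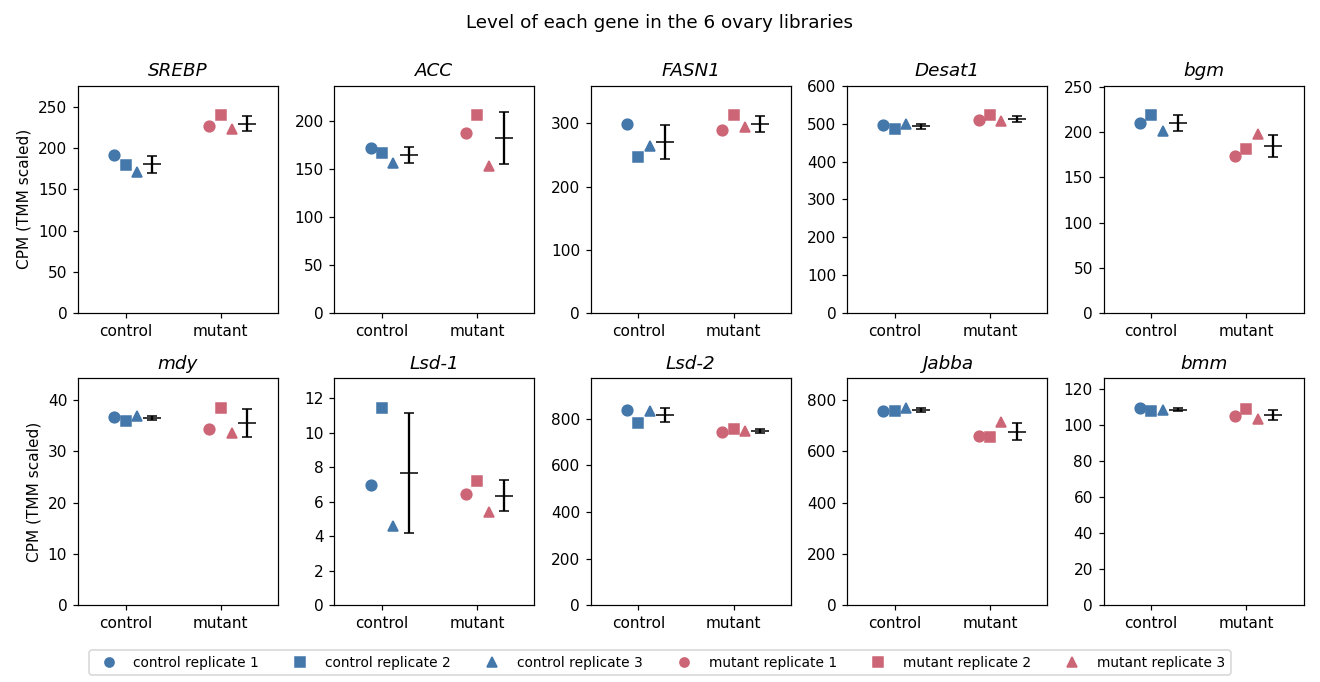
CPM of each of the 10 genes in each library, with blue points for control and red for mutant, the shape giving the replicate number, and the bar beside each group its mean ± SD (n = 3); every axis starts at 0. SREBP is higher and Jabba, bgm and Lsd-2 are lower in each mutant library than in each control library, by steps that are small beside the levels themselves.

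The genes differed far more from each other than between genotypes. On a scale per length, CPM per kilobase of merged exons, Jabba stood first in control ovaries at 315 ± 3.13 (SD, n = 3), rank 202 of the tested genes with a length. Desat1 at 198 ± 2.76 and Lsd-2 at 178 ± 6.89 followed, all 3 within the top 4.84% of tested genes. Then came bgm at 79.6 ± 3.41, SREBP at 44.5 ± 2.53, bmm at 44.5 ± 0.421, FASN1 at 30.9 ± 3.05, ACC at 18.2 ± 0.877, mdy at 13.6 ± 0.169 and Lsd-1 at 3.91 ± 1.78. Of the 2 fly perilipin genes, Lsd-2 was the third in this order and Lsd-1 the last, and of the coat genes the ovary libraries held mostly Jabba and Lsd-2 transcripts. Neighbours in this order did not overlap between libraries, apart from SREBP and bmm in control ovaries, at 42.1 to 47.2 and 44.1 to 44.9. In mutant ovaries that pair was apart, with SREBP at 55.1 to 59.2 and bmm at 42.3 to 44.6. The order depends on the length used: per kilobase of genomic length, Lsd-2 stood above Desat1, at 115.1 against 61.6, SREBP above bgm, at 35.8 against 33.2, and FASN1 above bmm, at 23.4 against 10.9.

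**Figure D3:**
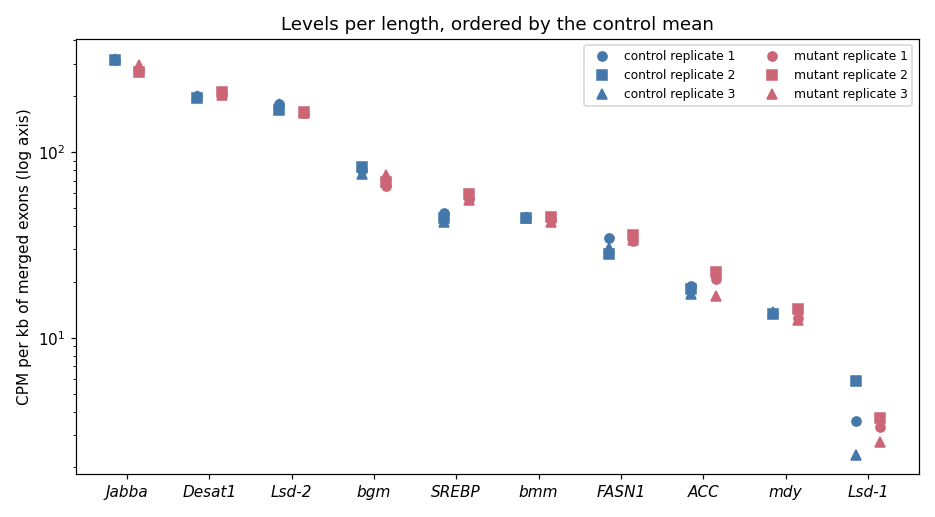
CPM per kilobase of merged exons on a log axis for the 10 genes, ordered by the control mean, 1 point per library, blue for control and red for mutant. Levels run from 315 for Jabba to 3.91 for Lsd-1 in control ovaries, and the order of the genes is the same in the mutant means.

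SREBP (FBgn0261283), the gene of the transcription factor that drives fatty acid synthesis, had the best supported change of the 10. It lies at 19793935 to 19798979 on the plus strand of 3L in the BDGP6 (dm6) build. Its level was 227, 240.2 and 223 CPM in mutant replicates 1, 2 and 3 and 191, 179 and 171 CPM in control replicates 1, 2 and 3. All mutant libraries lay above all control libraries. SREBP rose by 0.35 on the log2 scale (SE 0.05, adjusted p = 0.00191, edgeR), or 27.4% with a 95% interval of 17.9 to 37.7%, and ranked 169 by p among all tested genes. It passed the threshold in each of 14 alternative fits, with log2 fold changes of 0.31 to 0.39. Without mutant replicate 2, the library with gut transcripts, the adjusted p was 0.0067.

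The other genes of SREBP activation did not pass. SCAP, the escort that carries SREBP to the Golgi, was at 0.12 (SE 0.06, adjusted p = 0.211) on the log2 scale, and the proteases S1P and S2P, which cut it there, were at 0.01 and −0.02. CG14102, the next tested gene on the other side of SREBP's 3′ end and on the opposite strand, was called lower at −0.50 (SE 0.11, adjusted p = 0.0123); the annotated ends of both genes overlap by a few bases, 0.123% of SREBP's exons. On SREBP's opposite flank, the next tested gene, serp, 85920 bases away, was called higher at 1.03 (SE 0.26, adjusted p = 0.0278). Of the next tested genes beside the other members, only CG18549, next to Desat1, was called. Over all tested genes 14.5% were called, and a local effect was not tested.

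ACC and FASN1, the genes of acetyl-CoA carboxylase and fatty acid synthase and known targets of SREBP in flies, did not pass the test. ACC (FBgn0033246, 2R, 7974115 to 7991862, minus strand) was at 188, 206 and 153 CPM in mutant replicates 1 to 3 and at 172, 166 and 156 in control replicates 1 to 3. Mutant replicate 3 lay below every control library and the other mutant libraries above them, so the groups overlapped. Its log2 change was 0.15 (SE 0.11, adjusted p = 0.444, edgeR), with a 95% interval of −0.12 to 0.41. Without mutant replicate 3 ACC passed, at 0.26 with an adjusted p of 0.0100.

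FASN1 (listed under the older ID FBgn0027571 and matched by position, 2L, 3056598 to 3068177, plus strand) was at 289.5, 313 and 295 CPM in mutant and 299.6, 247 and 265 CPM in control replicates 1 to 3. Control replicate 1 lay inside the mutant range and the other control libraries below it. The fit gave a log2 change of 0.14 (SE 0.07, adjusted p = 0.202, edgeR; 95% interval −0.01 to 0.30). Leaving out control replicate 1 gave 0.22 with an adjusted p of 0.0462. For both genes the interval leaves room for a rise as large as that of SREBP in ACC and somewhat less in FASN1, and for no change. FASN2, a second synthase gene whose annotated end lies 455 bases before the start of FASN1 on the same strand, was nearly silent, with 0.442 ± 0.0773 CPM in mutant and 0.948 ± 0.342 CPM in control libraries.

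Desat1 (FBgn0086687, 3R, 12439600 to 12447616, plus strand), which encodes the delta-9 desaturase that makes monounsaturated fatty acids, differed little. It had 509, 523 and 507 CPM in mutant and 497, 486 and 498 CPM in control replicates 1 to 3. The groups did not overlap, but the gap was narrow. A log2 change of 0.05 (SE 0.04, adjusted p = 0.374, edgeR) had a 95% interval of −0.03 to 0.14, which leaves out changes beyond 9.97% upward and 1.96% downward. Desat1 lies 1.02 Mb from Ipo9, on the same arm. The labels do not give the ends of BSC469, so whether both groups carry a single copy of Desat1 was not determined. Its next tested neighbour to the right, CG18549, was called higher at 0.61 (SE 0.05, adjusted p = 8.1e-05). That to the left, Srlp, did not pass (0.13, SE 0.05, adjusted p = 0.102, edgeR).

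The acyl-CoA synthetase gene bgm (FBgn0027348, 2L, 14013004 to 14019328, plus strand) encodes an enzyme that activates very long chain fatty acids. Mutant replicates 1, 2 and 3 held 174, 182 and 198 CPM, and control replicates 1, 2 and 3 held 209.9, 219 and 201 CPM. Mutant replicate 3 came within a few CPM of control replicate 3, and the groups did not overlap. In the fit bgm fell by 12.1%, a log2 change of −0.19 (SE 0.05, adjusted p = 0.0469, edgeR), with a 95% interval of −19.1 to −4.39%. This call rested on nearly all libraries: leaving out mutant replicate 1 (adjusted p = 0.153) or 2 (0.129), or control replicate 1 (0.131), 2 (0.140) or 3 (0.0580), ended it in edgeR's test, and so did limma-voom (0.0579) and library totals alone (0.0719). The paralog hll, on the same arm, was close to silent, with 0.0842 ± 0.0359 CPM in mutant and 0.0284 ± 0.0492 CPM in control libraries.

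The diacylglycerol acyltransferase gene mdy (FBgn0004797, 2L, 16816660 to 16826964, plus strand) makes the last bond of triglyceride, and egg chambers of females without it are known to degenerate in the middle of oogenesis. It had 34.3, 38.5 and 33.5 CPM in mutant and 36.6, 35.9 and 36.8 CPM in control replicates 1 to 3. The mutant libraries lay on both sides of the narrow control range. The estimate was −0.04 on the log2 scale (SE 0.06, adjusted p = 0.716, edgeR; 95% interval −0.18 to 0.10). Of the second family of acyltransferases, CG1941 had 7.38 ± 1.11 CPM in mutant and 4.73 ± 1.22 CPM in control libraries (log2 change 0.64, adjusted p = 0.0591), and Dgat2 and CG1946 had too few counts to test.

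Jabba (FBgn0259682), the gene of a droplet protein that holds maternal histones on lipid droplets, was lower in mutant ovaries. It lies at 18757074 to 18761082 on the minus strand of 2R. Its level was 659.5, 656 and 715 CPM in mutant replicates 1, 2 and 3, and 758, 757 and 770.5 CPM in control replicates 1, 2 and 3. The control libraries agreed to within 0.994% (coefficient of variation), and mutant replicate 3 lay between them and the other mutant libraries. Jabba fell by 11.2%, a log2 change of −0.17 (SE 0.04, adjusted p = 0.0295, edgeR), with a 95% interval of −17.0 to −4.90%. The call ended without any 1 library other than mutant replicate 3, at adjusted p of 0.109 without mutant replicate 1, 0.103 without mutant replicate 2, 0.0984 without control replicate 1, 0.0638 without control replicate 2 and 0.0842 without control replicate 3. Its log2 change stayed between −0.21 and −0.15 in all 14 alternative fits.

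Lsd-2 (FBgn0030608, X, 15069127 to 15076220, minus strand), is the perilipin gene known from the germline and early embryo. Mutant replicates 1 to 3 held 743, 757 and 746 CPM and control replicates 1 to 3 held 836, 780 and 834 CPM. All mutant libraries lay below all control libraries, with control replicate 2 nearest to them. Its log2 change of −0.13 (SE 0.04, adjusted p = 0.0734, edgeR) fell short of the threshold, with a 95% interval of −0.22 to −0.03. DESeq2 called it (−0.13, adjusted p = 0.0132), where it calls 13.6% of the genes it tests, and so did edgeR without control replicate 2 (−0.16, adjusted p = 0.0480). The chorion sum, given above, was also nearest to the mutants in control replicate 2. Among the mutant libraries, which lay close together at 743 to 757 CPM of Lsd-2, that sum was highest in replicate 1, where Lsd-2 was lowest. Whether the chorion sum bears on Lsd-2 was not tested.

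Lsd-1 (FBgn0039114, 3R, 23763857 to 23766662, plus strand), a perilipin gene best known from the fat body, was the least abundant of the 10 per length. It had 165, 157 and 121 counts in mutant and 185, 249 and 108 counts in control replicates 1 to 3, or 6.45, 7.22 and 5.40 CPM against 6.96, 11.5 and 4.60. The control libraries spanned more than the whole mutant range. Lsd-1's log2 change was −0.27 (SE 0.32, adjusted p = 0.642, edgeR), with a 95% interval of −1.03 to 0.50, and without control replicate 2 its sign turned to 0.14. Of its exon bases 7.35% lie opposite another gene, CG10214. The 8 fat body markers summed to 22.6, 11.9 and 13.9 CPM in mutant and 27.9, 41.9 and 20.4 CPM in control replicates 1 to 3, highest and lowest in the same control libraries as Lsd-1. Among the mutant libraries the sum was lowest in replicate 2, where Lsd-1 was highest. Nearly all of that sum was apolpp, and 5 of the 8 were under 1 CPM in every library. The part of fat body tissue in the Lsd-1 values was not tested.

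The lipase gene bmm (FBgn0036449, 3L, 14776496 to 14786412, minus strand), which encodes the fly counterpart of adipose triglyceride lipase, showed the least spread among the control libraries, a coefficient of variation of 0.948%. It had 105, 109 and 103 CPM in mutant and 109.5, 107 and 108 CPM in control replicates 1 to 3. Mutant replicate 2 lay within the control range and the other mutant libraries below it. The fitted log2 change was −0.04 (SE 0.04, adjusted p = 0.560, edgeR), and its 95% interval of −8.37 to 3.40% leaves out a fall as large as the estimate for Jabba.

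**Figure D4:**
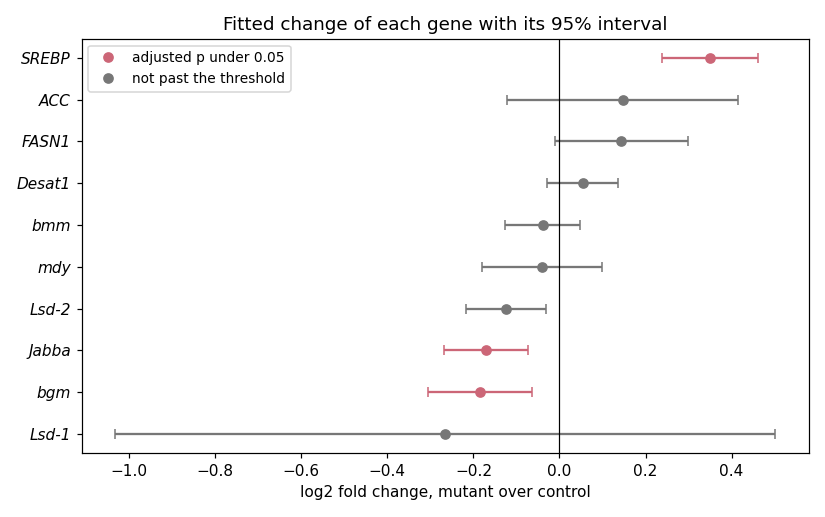
Log2 fold change of mutant over control for each of the 10 genes with its 95% interval from the edgeR fit, red where the adjusted p is under 0.05 and grey otherwise. SREBP at 0.35 stands to the right of all others, Jabba and bgm lie at −0.17 and −0.19, and the interval of Lsd-1 is the widest.

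The libraries did not weigh equally in these differences. Relative to the control mean on the log2 scale, mutant replicates 1, 2 and 3 stood at −0.21, −0.22 and −0.09 for Jabba, at −0.27, −0.21 and −0.08 for bgm, and at 0.19, 0.33 and −0.11 for ACC. For Jabba and bgm, mutant replicate 3 lay nearest to the controls, and for ACC it was the mutant library below their mean. Mutant replicate 3 also held the lowest follicle cell sum, and whether this bears on those values was not tested. For SREBP the same values were 0.33, 0.41 and 0.31, so the 3 mutant libraries were close together. Mutant replicate 2, with its gut transcripts, held the highest mutant level of SREBP, ACC, FASN1, Desat1, mdy, bmm, Lsd-1 and Lsd-2, and Jabba was lowest there. Whether gut RNA bears on those levels was not tested.

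The count of called members moved with the libraries in the fit, as did the background. Without mutant replicate 1, SREBP was the 1 member called, where 9.45% of all tested genes were, and without mutant replicate 2 it was again SREBP, where 9% were. Without mutant replicate 3, Jabba, ACC, SREBP and bgm passed, against 17.9% of all tested genes. Without control replicate 1, FASN1 and SREBP passed, against 6.88%, and without control replicate 2, Lsd-2 and SREBP, against 9.62%. SREBP was the 1 member called without control replicate 3, against 9.42%, and without both replicates numbered 2, against 6.3%. With no filter on low counts the 3 members called were again SREBP, Jabba and bgm, against 10.3%.

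The wider set of lipid genes, 78 beside the 10, was taken from 9 lists, which were chosen with earlier results of these data known. Of the 75 matched, 69 were tested, 6 were called higher and 12 lower, which is 26.1% against 14.5% of all tested genes, with a median log2 fold change of −0.02. As a list is not a set of independent genes, no test was made of it. Of the called genes, AcCoAS, FASN3, Fad2, Mcad, Fitm and CG3961, on 3L, and LpR1, on 3R, lie on the chromosome of the allele. As for the members, an effect of the allele and one of other differences between the chromosomes of the groups cannot be told apart. Each list count below stands beside 8.31% of all tested genes called higher and 6.2% called lower.

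All called genes of fatty acid oxidation were lower. Among its 13 genes, all tested, 5 fell, 0 rose and 8 did not pass, with a median of −0.15, where 6.2% of all tested genes were called lower. Mcad, the medium-chain acyl-CoA dehydrogenase gene, fell from 312 ± 20.6 to 242 ± 17.9 CPM (log2 change −0.37, SE 0.06, adjusted p = 0.00641, edgeR). Mtpalpha, the gene of a trifunctional protein subunit, fell from 375 ± 10.1 to 299.9 ± 22.9 CPM (−0.32, SE 0.06, adjusted p = 0.00478). Both passed in all 14 alternative fits. The exons of Mcad lie opposite another gene, CG7457, over 92.6% of their length, and those of whd opposite other genes over 11.1%, and the strand setting of the counting is not given in the sources used here, so the values of both are uncertain. The falls of whd, the carnitine palmitoyltransferase gene that admits fatty acids to mitochondria (−0.21), Etf-QO, which passes electrons from the pathway on (−0.22), and Acox57D-d, a peroxisomal oxidase gene (−0.25), were less firm. Leaving out mutant replicate 2 left 2 calls, where 343 of 8212 tested genes were called lower. So did leaving out control replicate 1 (247 of 8231 called lower) or control replicate 3 (328 of 8231). Leaving out mutant replicate 1 (344 of 8233 called lower) or control replicate 2 (348 of 8239) left 3. Without mutant replicate 3 (614 of 8236) there were 6, all lower.

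Fatty acid synthesis genes went both ways. Among 15 of them that were tested, 2 rose, 2 fell and 11 did not pass, with a median of 0.08. AcCoAS, the acetyl-CoA synthetase gene and another known SREBP target in flies, rose from 106 ± 13.3 to 166 ± 12.4 CPM (log2 change 0.64, SE 0.10, adjusted p = 0.00759, edgeR), and it passed without each library in turn, at up to 0.0411, and in 13 of 14 alternative fits in all. FASN3, one more synthase gene, rose from 2.30 ± 0.937 to 5.75 ± 0.747 CPM (1.33, SE 0.27, adjusted p = 0.0105), with 0.0526 without control replicate 3. Hacd1, the gene of a dehydratase in fatty acid elongation, fell by 0.29 (SE 0.05, adjusted p = 0.00561), and passed in all 14 alternatives. Fad2, a desaturase gene of female pheromone synthesis, had under 2 CPM in every library, at −1.08 with an adjusted p of 0.0480 that ended without any 1 library, at 0.0520 to 0.156. ATPCL, the ATP-citrate lyase gene that supplies acetyl-CoA, was at −0.03 (adjusted p = 0.688). FASN2, FASN3, Fad2 and eloF are also among the oenocyte markers, whose sum was lower in mutant libraries. Of these, eloF had too few counts to test, at 0.0920 to 0.179 CPM in mutant and 0.383 to 0.828 CPM in control libraries. Cyp4g1, an oenocyte enzyme gene of hydrocarbon synthesis, made up most of that sum, with 9.52 to 14.1 CPM in mutant and 26.0 to 41.1 in control libraries, and of the 4 oenocyte markers tested 1 was called higher, FASN3, and 2 lower, Cyp4g1 and Fad2.

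Of 10 triglyceride synthesis genes tested, 1 was lower and 0 higher, with a median of 0.05. Gpdh1, the glycerol-3-phosphate dehydrogenase gene, fell from 308 ± 11.4 to 248 ± 9.91 CPM (−0.31, SE 0.04, adjusted p = 0.00201, edgeR) and passed in all 14 alternatives. Of its exon bases 22.1% lie opposite a noncoding RNA gene, and of those of Fitm 12.3% opposite Gdap1, so both values carry the same uncertainty as that of Mcad. Of 9 droplet coat and biogenesis genes, Fitm, for a membrane protein of droplet budding, was higher at 0.16 (SE 0.05, adjusted p = 0.0448) and Jabba was lower, with a median of −0.06. The call of Fitm ended without any 1 library, at 0.0683 to 0.133, so without mutant replicates 1 or 2 or control replicates 1 or 3 none of the list passed in edgeR's test. klar, which encodes a regulator of droplet motion along microtubules, was at −0.06 (adjusted p = 0.554).

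Of 6 lipolysis genes, 2 were lower and 0 higher, with a median of −0.03. These were puml, the counterpart of a lipase coactivator with 5.11% of its exon bases opposite cathD, at −0.30 (SE 0.06, adjusted p = 0.0113, edgeR) and PAPLA1, a phospholipase gene, at −0.22 (SE 0.05, adjusted p = 0.0180). Both ended without control replicate 1, at 0.0519 and 0.0852, and PAPLA1 also without control replicate 2, at 0.0526. Hsl, the hormone-sensitive lipase gene, and dob, a paralog of bmm that lies next to Lsd-2, were at −0.02 and 0.08 and did not pass. The lipase gene mag, known from the gut, was not tested: it had 98 counts in mutant replicate 2, the library with gut transcripts, and 0 to 2 in each of the other 5 libraries.

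Of 8 acyl-CoA synthetase genes tested, 2 were higher, AcCoAS and Acsf2, and 2 lower, bgm and CG3961, with a median of −0.03. Acsf2 rose by 0.40 (SE 0.08, adjusted p = 0.00790, edgeR) and passed in all 14 alternatives. CG3961 fell by 0.40 (SE 0.10, adjusted p = 0.0220), a call lost on leaving out mutant replicate 2 (adjusted p = 0.0911) or control replicate 1 (0.0917) or 3 (0.0781). Acsl, the long-chain synthetase gene, had 324 ± 24.4 CPM in mutant and 344 ± 4.58 CPM in control libraries (−0.08, adjusted p = 0.340).

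Of 9 phospholipid synthesis genes, 1 was higher and 1 lower, with a median of 0.07. Both belong to the branch that makes phosphatidylethanolamine, the lipid known to restrain SREBP cleavage in flies. Pect, which encodes the enzyme after ethanolamine kinase, was at 0.17 (SE 0.04, adjusted p = 0.0260, edgeR), and eas, the ethanolamine kinase gene, was at −0.14 (SE 0.04, adjusted p = 0.0480). Pect's call was lost on leaving out mutant replicate 2 (adjusted p = 0.0867) or control replicate 2 (0.0779) or 3 (0.0816), and that of eas on leaving out any 1 library, at 0.0700 to 0.149. Of 7 lipoprotein uptake and transport genes, 1 was higher, the receptor gene LpR1 at 0.37 (SE 0.06, adjusted p = 0.00257, edgeR), with a median of 0.02.

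**Figure D5:**
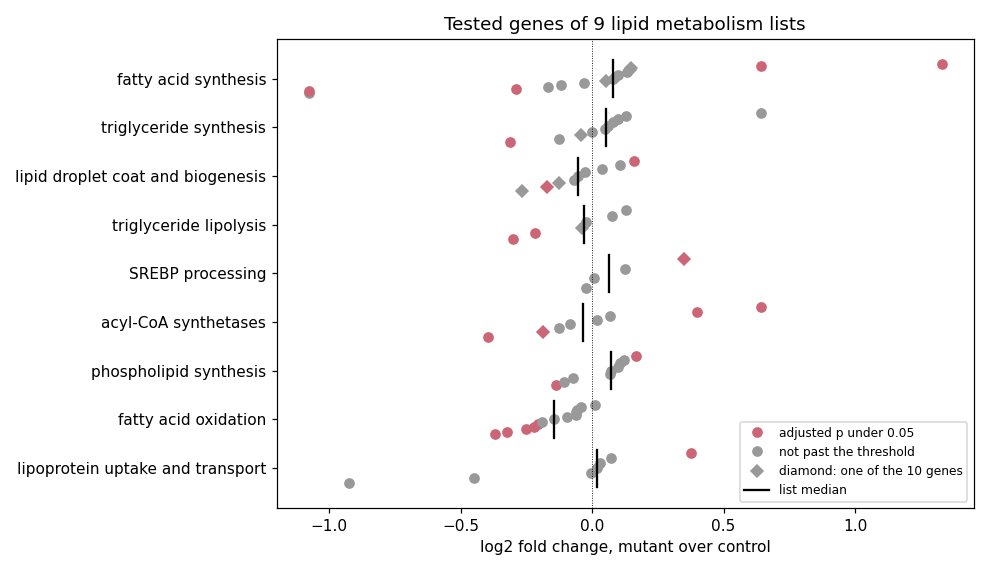
Log2 fold change of mutant over control for each tested gene of 9 lists, red where the adjusted p is under 0.05, diamonds for the 10 genes of this account, and a black line at each list's median. The 5 called genes of fatty acid oxidation all lie below 0, and the called genes of fatty acid synthesis lie on both sides.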

How the data were processed

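The authors deposited 1 table of unnormalized counts for each library, with genomic positions and lengths. The submitters' processing notes name the tools TopHat2, HTSeq and DESeq2 and the builds dm6 and BDGP6; their roles, their versions and any strand setting were not given in the sources used here. Symbols came from the BDGP6 annotation by ID for 17253 genes and by position, with at least 90% reciprocal overlap, for 210. PISD, Ptpmt1 and Fatp1 were not matched, and CdsA was read as Cds.

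Genes were kept by filterByExpr (minimum count 10), scaled with TMM, and fitted with edgeR 4.0.16 (robust quasi-likelihood) in R 4.3.3 without covariates; p-values were adjusted over 8110 genes. Intervals are 95% from the fitted SE. The common biological coefficient of variation was 6.63%. The other tools were DESeq2 1.42.0 and limma 3.58.1 (voom). Scripts were tested on simulated data. The members and lists were chosen with earlier results of these data known. Named genes are the 10, called genes of the lists and genes that explain a list. Up to 4 called genes per list were planned, but 5 are named for fatty acid oxidation. The other named genes, such as ATPCL, klar, Acsl, Hsl, mag, neighbours and paralogs, were chosen after their values were seen. No molecular identifiers are described.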

Additional observations from a re-analysis of the deposited data

How the results depend on the processing

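The alternatives were other scalings, DESeq2, limma-voom, no or a stricter filter, a replicate block, each library left out and both replicates numbered 2 left out. With the replicate block 728 genes (8.98%) and 1 member (SREBP) passed, against 1177 and 3. Over all tested genes, same-numbered libraries correlated at −0.23, −0.26 and −0.12 in their deviations from the group means, so no general shift shared by them was seen. Deviations within a group are tied to each other, so these correlations cannot show whether such libraries were collected together. Single genes differed: Lsd-1 was highest in replicate 2 and lowest in replicate 3 in both groups. The block lowered the SE of Lsd-1 from 0.32 to 0.19, that of ACC from 0.11 to 0.07 and, slightly, that of SREBP. It raised the SE of the other members. With 1 library left out, 566 to 1475 genes and 1 to 4 members passed. Without both replicates numbered 2, 516 genes and 1 member (SREBP) passed. Lsd-1 changed sign in 2 fits: its log2 fold change was −0.53 to 0.14 with 1 library left out, the latter without control replicate 2, and 0.0345 with both replicates numbered 2 left out. The other 9 kept their direction in all 14. Without mutant replicate 3, ACC passed as well; the cause of these shifts was not tested. Per genomic length instead of merged exons, control levels of all 10 were lower and their order changed: Jabba 190.0, Lsd-2 115.1, Desat1 61.6, SREBP 35.8, bgm 33.2, FASN1 23.4, bmm 10.9, ACC 9.28, mdy 3.54 and Lsd-1 2.73. The wide interval of Lsd-1 goes with a coefficient of variation of 45.4% among the control libraries, against 14.4% among the mutant ones, at 108 to 249 counts.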
